A study of Homo sapiens with 30 samples.

Results

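Gene desert peaks are ChIP-seq peaks that lie far from any protein-coding gene. They were taken from 5 peak lists of HEK293T cells, and a peak on chromosomes 1 to 22 was a member when its summit lay more than 500 kb from every protein-coding gene span of GENCODE 44 on GRCh37, the assembly whose chromosomes have the hg19 coordinates of the lists. This rule chose 32997 of 331442 autosomal peaks, out of 431864 peaks on all chromosomes and contigs. The rule used position only, so peak strength, sequence and the response to knockdown were not part of the choice.

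The lists came from HEK293T, an immortal line of human embryonic kidney origin. Antisense oligonucleotides (ASOs), which lower the amount of a chosen RNA, were transfected, and fixation followed after 48 hours. H3K27me3 was profiled after a negative control ASO (NC), after ASO LINC00641 (∆LINC00641) and after ASO SETD5-AS1 (∆SETD5-AS1). H3K9me3 was profiled after NC and after ASO LINC00662 (∆LINC00662). The track lines name a single ASO for LINC00641 and for SETD5-AS1 and a mix of ASOs for LINC00662, so no group separates the lncRNA from the oligonucleotide used. All 5 groups shared the cell line and the transfection, and each had 3 ChIP replicates and 3 input replicates. The replicates were merged by the authors before peaks were called, so each group is 1 list, no value has an error between replicates and no test between groups was possible. Levels of the targeted RNAs were not analysed here.

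Both marks go with silent chromatin. H3K27me3 is written by Polycomb repressive complex 2 (PRC2), whose catalytic subunit is EZH1 or EZH2, and is known for broad domains over developmental genes that a cell does not use. H3K9me3 is written by SUV39H1, SUV39H2 and SETDB1, is bound by HP1 proteins, and is known for satellite repeats, zinc finger gene clusters and other constitutive heterochromatin. Gene deserts are long stretches without protein-coding genes. They often flank genes for development or cell adhesion, hold distant enhancers and long noncoding RNA (lncRNA) genes, and include the satellite-rich edges of centromeres.

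The members lay in 287 deserts with 226.9 Mb of known sequence, 8.45% of the autosomes. A desert was named by the protein-coding gene on either side, and its ends lay 500 kb from those genes. In 33 deserts (22.03 Mb) a run of at least 50 kb of unknown bases (N), such as a centromere or chromosome end, lay inside or within 500 kb. These are called deserts near an assembly gap, and the other 254 (204.9 Mb) deserts away from gaps. The median desert held 539 kb and the longest 3.78 Mb. Desert sequence was poor in GC, with 36.1% against 41.4% in the rest of the autosomes. The word desert refers to protein-coding genes only. lncRNA genes covered 28.2% of desert bases, and 4 deserts, all near gaps, held immunoglobulin or T cell receptor gene segments, which GENCODE does not class as protein-coding. Those 4 held 263 of the H3K27me3 and 207 of the H3K9me3 members of NC.

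The strongest peaks by −log10 q show what sequence the marks sat on. The letters are the reference sequence of GRCh37, plus strand, 300 bases centred on the summit of the strongest H3K27me3 NC member away from assembly gaps and of the strongest H3K9me3 NC members away from and near them. In the H3K27me3 sequence the capitals mark CG, the dinucleotide that can carry DNA methylation. In the H3K9me3 sequences they mark GGAAT, the unit of human satellites II and III, or its reverse complement ATTCC.
Strongest H3K27me3 peak of NC away from assembly gaps, chr14:98697722-98698021: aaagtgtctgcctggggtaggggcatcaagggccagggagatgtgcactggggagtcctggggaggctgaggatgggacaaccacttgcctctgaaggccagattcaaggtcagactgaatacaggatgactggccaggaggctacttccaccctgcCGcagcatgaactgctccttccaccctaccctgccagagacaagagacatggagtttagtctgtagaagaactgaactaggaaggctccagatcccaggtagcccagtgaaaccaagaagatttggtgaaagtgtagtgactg
Strongest H3K9me3 peak of NC away from assembly gaps, chr4:190156155-190156454: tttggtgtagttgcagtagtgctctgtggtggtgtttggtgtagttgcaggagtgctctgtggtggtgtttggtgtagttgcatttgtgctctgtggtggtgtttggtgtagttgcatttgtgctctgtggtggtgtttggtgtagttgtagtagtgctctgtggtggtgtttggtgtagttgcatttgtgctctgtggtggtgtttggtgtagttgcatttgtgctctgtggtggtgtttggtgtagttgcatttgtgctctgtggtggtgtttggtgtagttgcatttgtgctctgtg
Strongest H3K9me3 peak of NC near an assembly gap, chr10:42385040-42385339: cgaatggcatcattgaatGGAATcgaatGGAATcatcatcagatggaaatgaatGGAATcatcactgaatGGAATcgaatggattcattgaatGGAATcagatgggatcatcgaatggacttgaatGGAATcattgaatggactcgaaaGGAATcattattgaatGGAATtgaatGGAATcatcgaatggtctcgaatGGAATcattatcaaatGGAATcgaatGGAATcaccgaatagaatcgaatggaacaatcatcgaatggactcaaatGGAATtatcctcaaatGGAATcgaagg
The H3K27me3 sequence, from the VRK1-BCL11B desert, held 1 CG. Both H3K9me3 sequences were repetitive. The chromosome 10 sequence, from the LINC00999-ZNF33B desert beside the centromere, held 14 matches of GGAAT or ATTCC. The chromosome 4 sequence, from the TRIML1-FRG1 desert, held none, and 96.2% of its bases were equal to the base 34 positions further on, which is a tandem repeat. Over all H3K9me3 NC members, at least 5 matches of GGAAT or ATTCC in the 300 bases at the summit were found in 72 (1.02%), against 0.234% of the other autosomal H3K9me3 NC peaks and 0.0605% of H3K27me3 NC members. Both strands are counted by searching both words, and matches that share bases each count. Of these 72 peaks, 66 lay in deserts near a gap. A CG was found in 91.9% of the H3K27me3 NC windows in deserts and in 92.0% elsewhere.

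These strongest peaks rested on unequal input. The H3K27me3 peak in the VRK1-BCL11B desert, chr14:98694680-98698287, had a fold enrichment of 8.45 with 40 fragments at the summit, and its local input was at the genome-wide level. On it ∆LINC00641 had peaks of up to 4.36 and ∆SETD5-AS1 of up to 5.13, and neither H3K9me3 list had a peak. For H3K9me3, chr10:42383254-42386596 had a fold enrichment of 29.0 with 11297 fragments on an input of 90.4 times that level, and chr4:190156134-190156600 had one of 3.27 with 1950 fragments on an input of 139 times that level. The next H3K9me3 peak away from gaps, chr13:65096476-65097169, had a fold enrichment of 6.59 with 68 fragments on an input of 2.21 times the genome-wide level. In ∆LINC00662 its fold enrichment was 9.53, with fewer fragments (57) on a lower input (1.45 times). That of the chromosome 10 peak was 8.81 in ∆LINC00662, with 3874 fragments on an input of 125 times. The second strongest H3K9me3 member near a gap had 30683 fragments, on chr1:121483084-121485428 beside the chromosome 1 centromere, with a fold enrichment of 4.42 on an input of 1615 times the genome-wide level. In the knockdown lists the strongest H3K27me3 members away from gaps were chr10:109672034-109675703 in the SORCS1-XPNPEP1 desert, with a fold enrichment of 8.22 in ∆LINC00641 against 4.63 in NC, and chr5:12490277-12493663 in the CTNND2-DNAH5 desert, with 6.83 in ∆SETD5-AS1 against 4.22 in NC. The chromosome 10 peak had 62 fragments on an input of 1.76 times the genome-wide level in ∆LINC00641, against 53 on 2.77 times in NC. The chromosome 5 peak had 45 on 1.29 times in ∆SETD5-AS1, against 35 on 1.96 times in NC. The higher fold enrichment thus came with more fragments and with lower local input. Each peak was the strongest of its own list by choice. Input-rich peaks (over 5 times the genome-wide level) were few, 0.520% of the H3K27me3 and 2.81% of the H3K9me3 members of NC.

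Where in the genome the marks met these deserts was asked first. H3K27me3 NC had 8262 members (11.2% of its autosomal peaks), ∆LINC00641 5521 (9.39%) and ∆SETD5-AS1 6674 (9.69%). H3K9me3 NC had 7074 members (9.36%) and ∆LINC00662 5466 (10.0%). The estimated depth was 39.1 M fragments in H3K27me3 NC, 38.1 M in ∆LINC00641 and 45.0 M in ∆SETD5-AS1. It was 42.2 M in H3K9me3 NC and 34.6 M in ∆LINC00662. Per Mb of known sequence, H3K27me3 NC had 36.4 peaks in deserts and 26.6 elsewhere, a density ratio of 1.37. The ratio was 1.12 in ∆LINC00641, 1.16 in ∆SETD5-AS1, 1.12 in H3K9me3 NC and 1.21 in ∆LINC00662. For H3K9me3 the excess lay near assembly gaps. There the ratio was 2.07 in NC and 2.87 in ∆LINC00662, while away from gaps it was 1.02 and 1.03. H3K27me3 NC had nearly the same ratio away from gaps (1.37) and near them (1.39). By bases covered instead of peak number, the ratio was 1.12 in H3K27me3 NC but below 1 in ∆LINC00641 (0.893) and ∆SETD5-AS1 (0.946). It was 1.06 in H3K9me3 NC and 1.17 in ∆LINC00662. H3K27me3 peaks were shorter in deserts, with a median width of 467 against 524 bp in NC, 451 against 518 in ∆LINC00641 and 441 against 498 in ∆SETD5-AS1.

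The plot of density by distance gives the same measure in 8 bands. H3K27me3 NC density rose from 19.4 peaks per Mb inside gene spans to 54.9 at 250 to 500 kb from genes. It was 40.5 at 500 to 1000 kb and 26.7 beyond 1000 kb, below its highest band in both. Beyond 1000 kb the density ratio to the remaining autosomal sequence was therefore below 1, at 0.971 in NC, 0.732 in ∆LINC00641 and 0.812 in ∆SETD5-AS1. It was also below 1 at 500 kb for peaks reaching a −log10 q of 5 in ∆LINC00641 (0.871) and ∆SETD5-AS1 (0.978). H3K9me3 NC was lowest inside gene spans (22.05) and highest at 10 to 50 kb (36.5), and it was flat in deserts, with 30.8 and 32.0. At the threshold of 500 kb, 278 H3K27me3 NC members lay within 10 kb inside it, with a median fold enrichment of 3.31, and 302 peaks lay within 10 kb outside it, with a median of 3.297. For H3K9me3 NC the numbers were 178 inside and 148 outside, with medians of 3.20 and 3.02.

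**Figure D1:**
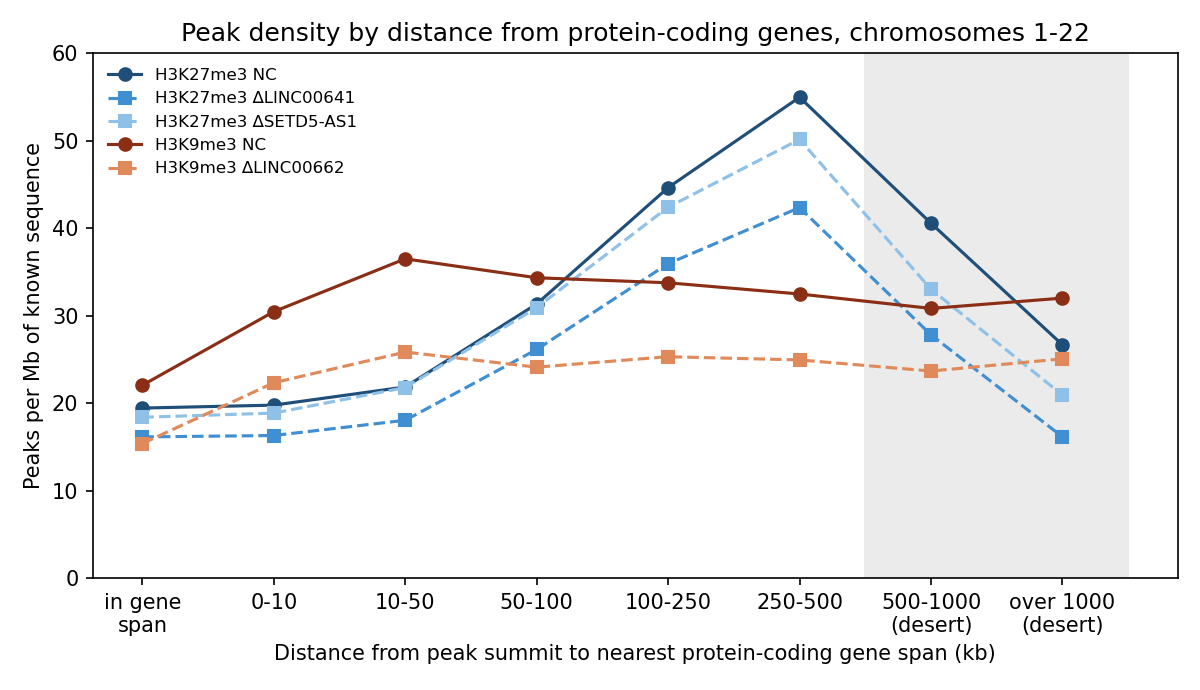
Peaks per Mb of known sequence (y axis) in 8 bands of distance from the summit to the nearest protein-coding gene span (x axis, kb) for the 5 lists; the shaded bands are the gene deserts. H3K27me3 NC peaked at 54.9 per Mb at 250 to 500 kb and fell to 26.7 beyond 1000 kb, while H3K9me3 NC stayed between 30.8 and 32.0 in the desert bands.

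The 2 marks filled the deserts in different ways. H3K27me3 was concentrated. No H3K27me3 NC peak was found in 122 of 287 deserts, which together hold 94.3 Mb, and 14 deserts with 8.89% of desert sequence held 50% of the members. The 10 deserts with most members held 42.9% of them at 257 per Mb, and the remaining 277 deserts had 22.1 per Mb, below the 26.6 of sequence outside deserts. These 10 were picked by the same count, so this is a description. H3K9me3 was spread. Only 16 deserts, with 0.672 Mb, had no H3K9me3 NC peak, 39 deserts were needed for 50% of the members, and the top 10 held 22.1% at 79.2 per Mb. Within a desert, neighbouring H3K27me3 NC summits were a median of 2.77 kb apart and 67.9% were within 5 kb, against 12.5 kb and 32.4% for H3K9me3 NC. The median width was similar, 467 and 458 bp.

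H3K27me3 ranked the MAT2B-TENM2 desert on chromosome 5 first (chr5:163446565-165906033), beside TENM2, a teneurin of synaptic adhesion. It held 657 members in NC, 418 in ∆LINC00641 and 522 in ∆SETD5-AS1, and NC peaks covered 16.7% of its bases. The members were not spread evenly in it. The 4 bins of 100 kb from its left edge to 400 kb held 0 or 1 NC peak each, and the 19 bins from 500 to 2400 kb held 26 to 42 each. In those 19 bins the range was 15 to 29 in ∆LINC00641 and 20 to 36 in ∆SETD5-AS1, with the edge of the domain in the same bin, as the profile plot shows. H3K9me3 NC had 79 members in the desert and at most 8 in a bin.

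The VRK1-BCL11B desert on chromosome 14 (chr14:97921184-99135623), downstream of BCL11B, a zinc finger factor of T cell and neuronal development, held 478 members in NC, 427 in ∆LINC00641 and 440 in ∆SETD5-AS1. NC peaks covered 34.0% of its bases. The MYC-GSDMC desert on chromosome 8 (chr8:129255198-130260441), beside the growth regulator MYC, was of the same kind, with 423, 333 and 382 members and 34.9% of its bases covered in NC. It held the longest H3K27me3 NC member, chr8:129926678-129932525, 5848 bp over the lncRNA gene CCDC26, whose fold enrichment was 5.15. ∆LINC00641 and ∆SETD5-AS1 each had 3 peaks in its place, with the strongest at 6.87 and 4.45. The KHDRBS3-FAM135B desert on chromosome 8 (chr8:137168966-138642265) held 445, 312 and 365 members. KHDRBS3 is an RNA-binding protein. Of deserts near gaps, the RP11-685N3.1-TEKT4 desert at the chromosome 2 centromere held most, with 127, 104 and 132, followed by the one between the end of chromosome 21 and TPTE, with 110, 48 and 49.

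H3K9me3 was led by other deserts. The ZNF716-ZNF722 desert across the chromosome 7 centromere, flanked by zinc finger genes of a family often marked by H3K9me3, held 205 members in NC and 185 in ∆LINC00662. FAM72B-PPIAL4G, across the chromosome 1 centromere, held 146 and 167. Away from gaps the 4 leading deserts were all on chromosome 13. SLITRK5-GPC5 (chr13:88848528-91550874), between a synaptic adhesion gene and a glypican, held 195 members in NC and 144 in ∆LINC00662. The numbers were 181 and 115 in the desert left of the protocadherin PCDH9, 172 and 115 in SPRY2-SLITRK1, and 156 and 136 in the desert between ENSG00000197991 and ENSG00000237378. In the H3K27me3 lists these 4 deserts were nearly empty. SLITRK5-GPC5 had no peak in any of the 3 lists over 2.70 Mb, and the others had at most 4.

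**Figure D2:**
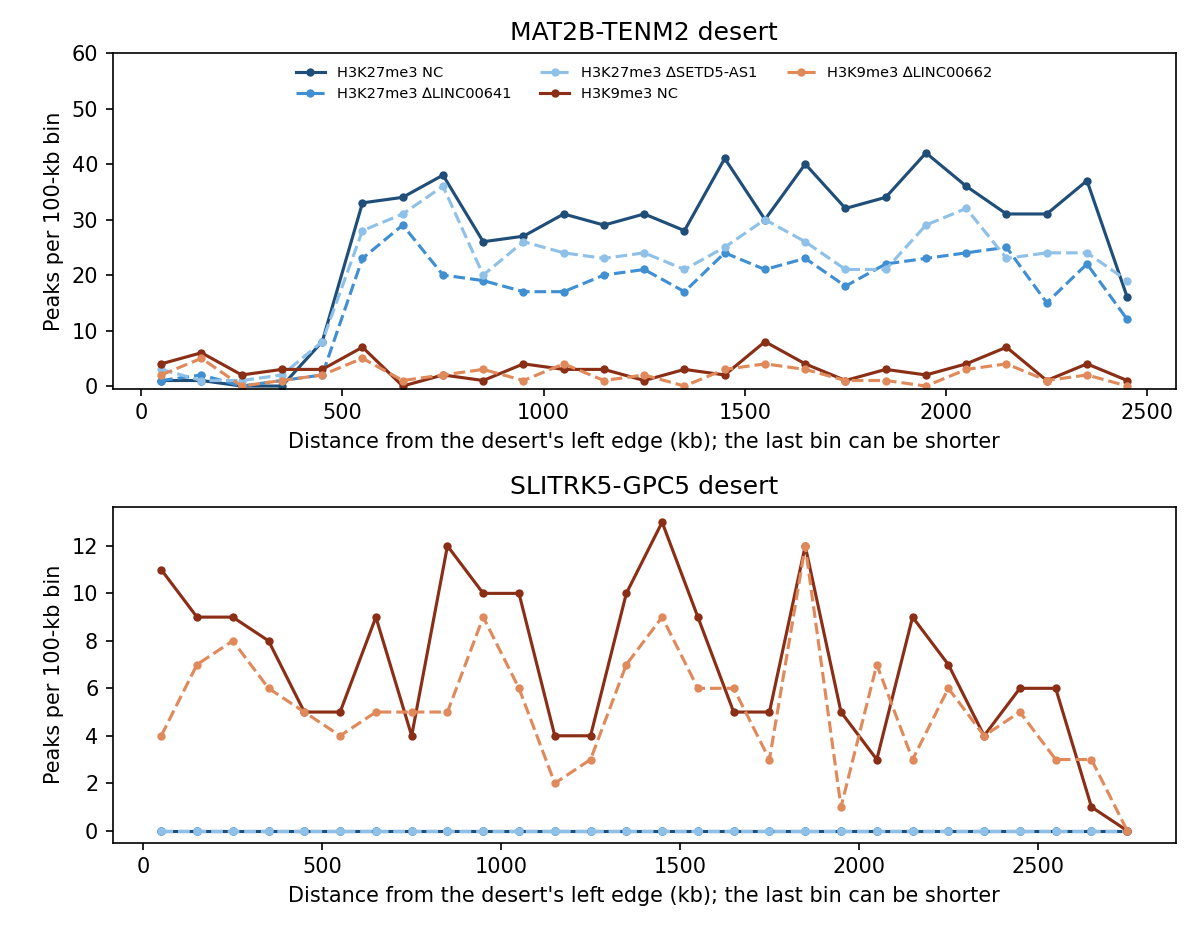
Peaks per 100-kb bin (y axis) against the distance from the left edge of the desert (x axis, kb) in the 5 lists, for the desert away from gaps with most H3K27me3 NC members (top) and the one with most H3K9me3 NC members (bottom). In MAT2B-TENM2 the NC line steps from at most 1 peak per bin in the first 400 kb to between 26 and 42 from 500 to 2400 kb; in SLITRK5-GPC5 all 3 H3K27me3 lines stay at 0 and H3K9me3 NC reaches 13.

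The 15 deserts of chromosome 13 (17.9 Mb) together showed the same split. They held 17 H3K27me3 members in NC, 2 in ∆LINC00641 and 16 in ∆SETD5-AS1, or at most 0.947 per Mb. They held 1044 H3K9me3 members in NC (58.2 per Mb) and 780 in ∆LINC00662, and each had at least 1 in NC. Outside deserts chromosome 13 was poor in H3K27me3 too, with 3.81 NC peaks per Mb against 26.6 over all autosomes. For H3K9me3 NC the densities outside deserts were 34.8 and 27.9. Chromosome 4 deserts were also poor in H3K27me3, with 7.42 NC members per Mb against 12.9 in the rest of that chromosome. They were not rich in H3K9me3, with 28.8 against 32.7. Chromosomes 2, 8, 5 and 14 held 54.5% of the H3K27me3 NC members, and chromosomes 13, 4, 5 and 2 held 44.8% of the H3K9me3 ones. The density ratio of H3K27me3 NC was above 1 on 13 of 22 chromosomes and ranged from 0.248 on chromosome 13 to 7.16 on chromosome 22, whose 3 deserts span 0.575 Mb. That of H3K9me3 NC was above 1 on 14 and ranged from 0.445 on chromosome 19 to 3.38 on chromosome 22.

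Both marks were present in 161 deserts, H3K9me3 alone in 110 (93.8 Mb, 31.5% of its NC members), H3K27me3 alone in 4 and neither in 12, as the plot of both marks by desert shows. Over the 199 deserts of at least 200 kb away from gaps, the densities of the marks had a Spearman rho of 0.185 and a Pearson r of 0.231. The same libraries underlie every desert, so this is a description. H3K27me3 density went with the GC content of the desert (rho 0.527) more than H3K9me3 density did (0.183), and the 10 deserts richest in H3K27me3 had a median GC of 38.0% against 36.2% over all deserts.

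**Figure D3:**
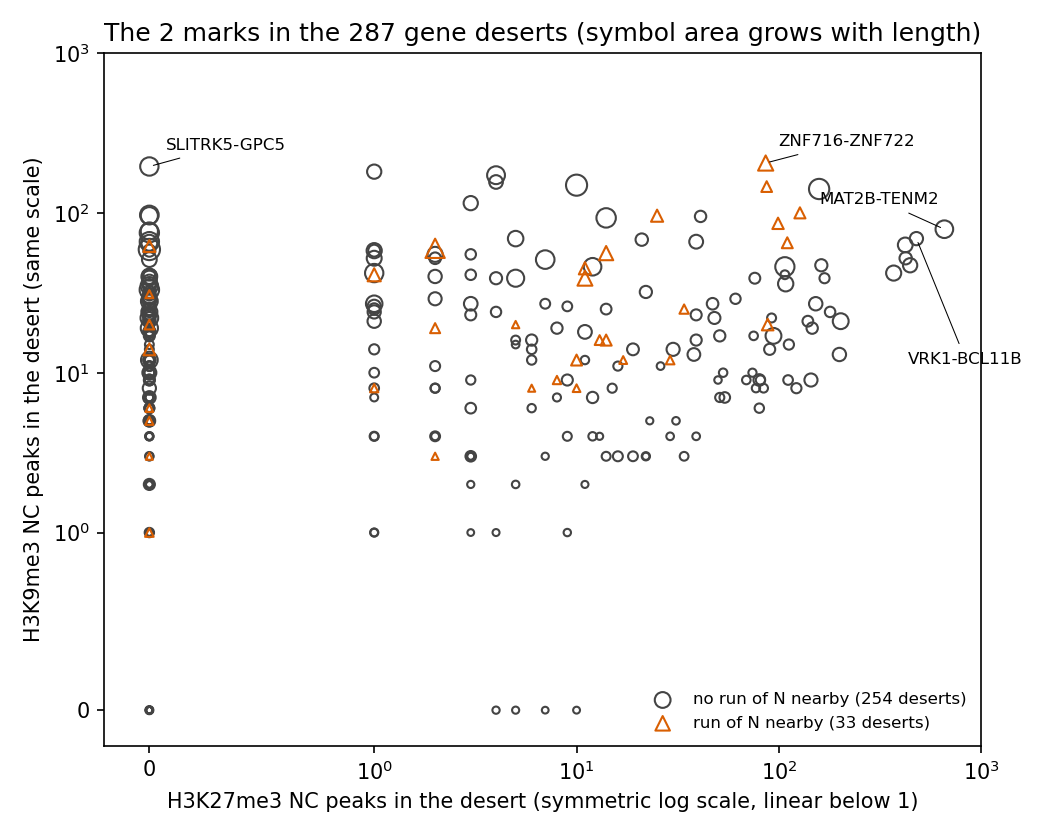
H3K27me3 NC peaks (x axis) against H3K9me3 NC peaks (y axis) in each of the 287 deserts, on symmetric log scales; circles are the 254 deserts away from assembly gaps, triangles the 33 near them, and symbol area grows with desert length. The column of symbols at 0 on the x axis holds 122 deserts without H3K27me3, among them SLITRK5-GPC5 with 195 H3K9me3 peaks.

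Overlap between the marks at single peaks was lower than elsewhere for H3K27me3 members and, away from gaps, for members of both marks. Of 7074 H3K9me3 NC members, 704 (9.95%, Wilson 95% interval 9.28 to 10.7) overlapped an H3K27me3 NC peak by at least 1 bp, against 9.92% of the other autosomal peaks and 9.93% of all. Of 8262 H3K27me3 NC members, 700 (8.47%, 7.89 to 9.09) overlapped an H3K9me3 NC peak, against 10.1% of the others and 9.93% of all. Such intervals treat each peak as independent, and counting error is all they cover. Among peaks reaching a −log10 q of 5 the H3K9me3 share was 4.26%, above the 3.62% of other peaks. Over 250 kb from genes it was 13.2%, against 9.19%. The H3K9me3 share in deserts was below that of other peaks in 2 of 8 settings. The overlap was more frequent near gaps. There 18.4% of H3K9me3 and 28.8% of H3K27me3 members carried both calls, against 8.10% and 6.26% away from gaps. Peaks near gaps had more input (5.05% of H3K27me3 and 8.51% of H3K9me3 members were input-rich, against 0.0268% and 1.57% away from gaps), and the part of that in the overlap was not tested.

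Desert peaks were compared with other peaks of the same list in sequence. The median GC of H3K27me3 NC members was 43.9%, above the 36.1% of desert sequence and near the 45.4% of other H3K27me3 peaks. For H3K9me3 NC it was 47.4% in deserts and 47.5% elsewhere. The observed over expected CpG ratio was 0.202 in H3K27me3 members and 0.191 in other peaks, and 0.213 in both classes for H3K9me3. Median fold enrichment was 3.297 in and outside deserts for H3K27me3 NC and 3.21 for H3K9me3 NC. The strongest H3K27me3 peaks were outside deserts, where the highest fold enrichment was 29.8 against 8.45 inside. For H3K9me3 the highest was 32.9 in deserts and 29.8 elsewhere. Over whole peaks, 64 H3K9me3 NC members had at least 20 matches of GGAAT or ATTCC per kb, of which 63 lay near gaps, and no H3K27me3 NC member did. The longest H3K9me3 member, chr10:42354993-42361792, was of this kind, with 6800 bp, 112 matches per kb, a fold enrichment of 16.1 and input at the genome-wide level. In ∆LINC00662 it was represented by 2 peaks with the stronger at 4.06, on an input of 2.39 times the genome-wide level.

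H3K27me3 members lay in lncRNA genes more often than desert bases did. The summit was inside a lncRNA gene for 39.3% (38.3 to 40.4) of H3K27me3 NC members and 27.1% (26.0 to 28.1) of H3K9me3 NC members, beside 28.2% of desert bases. Outside deserts the shares were 22.7% and 20.7%, beside 18.5% of bases. Few summits lay within 1 kb of a lncRNA start, 1.16% and 1.20%. In all, 3248 H3K27me3 NC members had their summit inside a lncRNA gene. The genes with most H3K27me3 NC summits were LINC02055 on chromosome 8 (271), CCDC26 (243), LINC03000 on chromosome 5 (213) and ENSG00000253693 on chromosome 5 (151). The share without these 4 genes was not computed. The shortest of the 4 spans 429.7 kb. LINC02055 and CCDC26 extend beyond the KHDRBS3-FAM135B and MYC-GSDMC deserts, and the 2 on chromosome 5 lie within the MAT2B-TENM2 desert. In ∆LINC00641 they held 193, 179, 138 and 93, and in ∆SETD5-AS1 224, 223, 187 and 114. LINC03000 held the H3K27me3 NC peak chr5:164552061-164553173, whose fold enrichment was 7.42 in NC, 5.57 in ∆LINC00641 and 3.84 in ∆SETD5-AS1, with no H3K9me3 peak on it. This peak was named for its strength in NC. In the same gene chr5:164107835-164110556, named for its strength in ∆SETD5-AS1, had 6.81 there. An overlapping NC peak had 4.33 and an overlapping ∆LINC00641 peak 4.12. H3K9me3 NC summits were most frequent in ENSG00000251574 and ENSG00000248752 on chromosome 5 (46 each), EPIC1 on chromosome 22 (41) and LINC02336 on chromosome 13 (38). In ∆LINC00662 these held 21, 20, 43 and 27. EPIC1, the lncRNA gene of the TBC1D22A-TAFA5 desert, also held 107 H3K27me3 NC summits, while the other 3 held at most 2 of NC.

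Deserts were also grouped by the first letters of the symbols of their flanking genes, not by known function. The adhesion and synapse group thus took in every symbol that starts with KCN, the potassium channel genes. The 26 deserts away from gaps beside developmental transcription factors had 70.4 H3K27me3 NC members per Mb, the 82 beside adhesion and synapse genes 32.1, and the 145 others 34.9. The 1 desert with both kinds of flank, KCNJ2-SOX9, had no H3K27me3 NC member and 61.6 H3K9me3 NC members per Mb. KCNJ2 counted as adhesion and synapse by the letters KCN. The value of the developmental group came from few deserts. VRK1-BCL11B and MYC-GSDMC, placed in it by the symbols BCL11B and MYC, held 478 and 423 of its 1176 members. The median desert of the developmental group had 0.704 per Mb, and 12 of its 26 had none. The median was 2.41 beside adhesion and synapse genes and 0 among the others. H3K9me3 NC had 31.3, 28.3 and 27.5 per Mb, with medians of 21.8, 23.4 and 23.6.

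The response to depletion was then compared between desert peaks and other peaks. Desert H3K27me3 peaks were fewer after both knockdowns by more than other peaks. The number of members in ∆LINC00641 was 0.668 times that in NC, against 0.815 times for other autosomal peaks, and the ratio in deserts was below that of other peaks on 19 of the 20 chromosomes with at least 20 members in NC. For ∆SETD5-AS1 it was 0.808 against 0.951, lower on 17 of 20. Both comparisons share the NC list. H3K9me3 went the other way, with 0.773 against 0.717 in ∆LINC00662, and the ratio in deserts was below that of other peaks on 6 of 22 chromosomes. The ∆LINC00662 list was shallower than its NC list and the ∆SETD5-AS1 list deeper, and the part of depth in these ratios was not tested.

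An NC peak was called retained when a knockdown peak overlapped it by at least 1 bp, and lost otherwise. Of 8262 H3K27me3 members of NC, 3393 were retained in ∆LINC00641 (41.1%, 40.0 to 42.1), against 53.0% of other peaks. Lost were 4869, where the share lost over all autosomal NC peaks was 48.4%. In ∆SETD5-AS1 3751 were retained (45.4%, 44.3 to 46.5), against 56.2% of other peaks, and 4511 were lost, where 45% of all were. The desert share was below that of other peaks on 20 and 18 of 20 chromosomes, and in 11 of 11 ways of defining peaks, overlap and deserts in both comparisons. Its level depended on the definition. It was 26.6% in ∆LINC00641 when 50% overlap was required, and 65.9% when NC peaks reaching a −log10 q of 5 were set against the whole knockdown list. For ∆SETD5-AS1 these were 30.2% and 68.3%. Of 7074 H3K9me3 members of NC, 2679 were retained in ∆LINC00662 (37.9%, 36.7 to 39.0), against 38.0% of other peaks, and 4395 were lost, where 62% of all were. New peaks, those of a knockdown list with no NC partner, were 37.5% of the ∆LINC00641 members (34.3% of all autosomal ones), 42.9% of the ∆SETD5-AS1 members (39.5%) and 49.2% of the ∆LINC00662 members (44.7%).

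Retention moved with peak strength and GC, so deserts were also compared at equal strength and GC. In 5 groups of −log10 q fixed over all autosomal NC peaks, retention in ∆LINC00641 rose from 25.3% in the weakest desert group to 70.0% in the strongest, against 32.6% and 82.6% of other peaks. In ∆SETD5-AS1 it rose from 31.5% to 72.4%, against 36.5% and 83.8%. The plot of retention by GC shows the same for 5 GC groups. In the lowest (at most 41.6% GC) 26.0% of desert and 31.8% of other peaks were retained in ∆LINC00641, and in the highest (over 51.0%) 51.0% and 67.7%. Desert retention was lower in each of the 5 strength groups and each of the 5 GC groups in both H3K27me3 comparisons. With other peaks weighted to the strength and GC of the members, a step chosen after the values were seen, retention outside deserts was 49.04% for ∆LINC00641 and 53.0% for ∆SETD5-AS1, still above the 41.1% and 45.4% of deserts. For ∆LINC00662 it was 37.4%, beside 37.9% in deserts. Peak width was not made equal. H3K27me3 NC peaks had a median width of 467 bp in deserts and 524 bp elsewhere, and the part of width in retention was not tested.

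**Figure D4:**
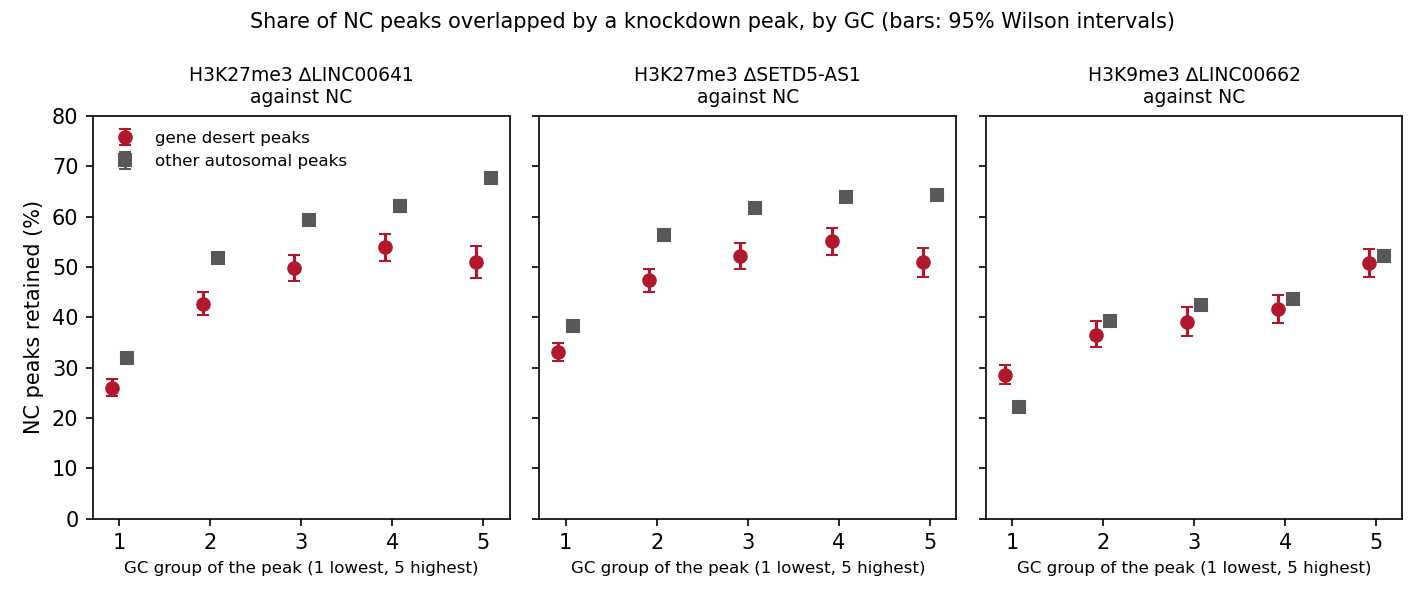
Share of NC peaks overlapped by a knockdown peak (y axis, %) in 5 groups of peak GC content (x axis) for gene desert peaks (circles) and other autosomal peaks (squares), with 95% Wilson intervals. In both H3K27me3 comparisons the desert points lie below the others in each group, from 26.0% against 31.8% to 51.0% against 67.7% for ∆LINC00641; for ∆LINC00662 the lowest GC group is reversed, at 28.6% against 22.1%.

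GC moved with the number of peaks too. Among desert H3K27me3 peaks of the lowest GC group, ∆LINC00641 had 0.335 times the NC number, and in the highest group 1.10 times. Other peaks went from 0.431 to 1.19 times. In ∆SETD5-AS1 deserts the range was narrower, from 0.544 to 1.05, and in ∆LINC00662 deserts it was 0.410 to 1.27. The median GC of members was accordingly higher in the knockdown lists, at 46.3% in ∆LINC00641, 45.4% in ∆SETD5-AS1 and 50.4% in ∆LINC00662. Library GC and group cannot be told apart with 1 list per group. With GC equal, other peaks had ratios of 0.752 and 0.907 for the H3K27me3 knockdowns, above the 0.668 and 0.808 of deserts, and 0.720 for ∆LINC00662, below 0.773.

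Lost did not mean far from a peak. For desert H3K27me3, 29.5% of the members lost in ∆LINC00641 had a knockdown peak within 1 kb and 67.0% within 5 kb, and for ∆SETD5-AS1 34.3% and 72.2%. For other lost H3K27me3 peaks the shares within 1 kb were 36.9% and 41.4%, and within 5 kb 72.8% and 77.5%. Lost H3K9me3 peaks were more isolated than lost H3K27me3 peaks in and outside deserts. Of lost H3K9me3 members 16.2% lay within 1 kb and 37.8% within 5 kb of a ∆LINC00662 peak, against 18.7% and 44.4% of other lost H3K9me3 peaks. The lost H3K27me3 members with the largest −log10 q were all near gaps and mostly rich in input. For ∆LINC00641 they were chr9:66463972-66464359, with a fold enrichment of 3.61 on an input of 6.28 times the genome-wide level, and chr7:61180139-61180638, with 3.38 on 7.03 times. The nearest ∆LINC00641 peaks were 433 and 543 bp away. For ∆SETD5-AS1 they were chr9:66463138-66463561, with 4.01 on 5.11 times, and chr1:142581395-142582457, with 8.04 on input at the genome-wide level and the nearest ∆SETD5-AS1 peak 5871 bp away. The strongest new members away from gaps were chr12:98001601-98003015 in the NEDD1-TMPO desert for ∆LINC00641, with a fold enrichment of 5.09 and an NC peak 133 bp away, and chr22:48128067-48128555 in EPIC1 for ∆SETD5-AS1, with 5.23 and an NC peak 176 bp away.

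Where 1 NC and 1 knockdown peak overlapped one another alone, fold enrichment in deserts barely moved. Only peaks called in both lists form such pairs. Lost members, including any that weakened below the call limit, are left out, so these ratios do not describe all members. The median log2 ratio of knockdown to NC was -0.033 over 2707 desert pairs in ∆LINC00641 (interquartile range -0.28 to 0.24), against 0.011 for other pairs. It was -0.078 over 2998 pairs in ∆SETD5-AS1, against -0.075, and -0.0083 over 2419 pairs in ∆LINC00662, against 0.029. The SD of the median over chromosomes was between 0.0548 and 0.0731 in deserts, so only the ∆SETD5-AS1 value was larger than it, and these ratios depend on depth.

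Single deserts differed widely in how many peaks they kept. Of the 46 deserts with at least 50 H3K27me3 NC members, 45 had fewer in ∆LINC00641 and 41 fewer in ∆SETD5-AS1, with medians of 0.650 and 0.762 times. These deserts were picked by their NC number alone, which favours ratios below 1, so the counts and medians are a description. The deserts at the ends of these ranges were named after their values were seen. The ratio for ∆LINC00641 ranged from 0.337 in ZNF716-ZNF722 (86 to 29 members) to 1.10 in MKI67-MGMT (92 to 101), and went with desert GC (rho 0.654 over these deserts, which share both libraries). For ∆SETD5-AS1 the range was 0.445, in the desert left of TPTE (110 to 49), to 1.21 in QKI-C6orf118 (76 to 92), with a rho of 0.413. VRK1-BCL11B retained 68.0% (63.7 to 72.0) of its members in ∆LINC00641 and 69.5% in ∆SETD5-AS1, and MYC-GSDMC 59.6% and 66.9%. MAT2B-TENM2 retained 42.9% (39.2 to 46.7) and 52.4%, KHDRBS3-FAM135B 46.3% and 53.5%. GOT2-CDH8 on chromosome 16, named after its values were seen, retained 29.2% and 27.2%. Retention was below that of other autosomal peaks in 35 of the 46 deserts for each knockdown.

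**Figure D5:**
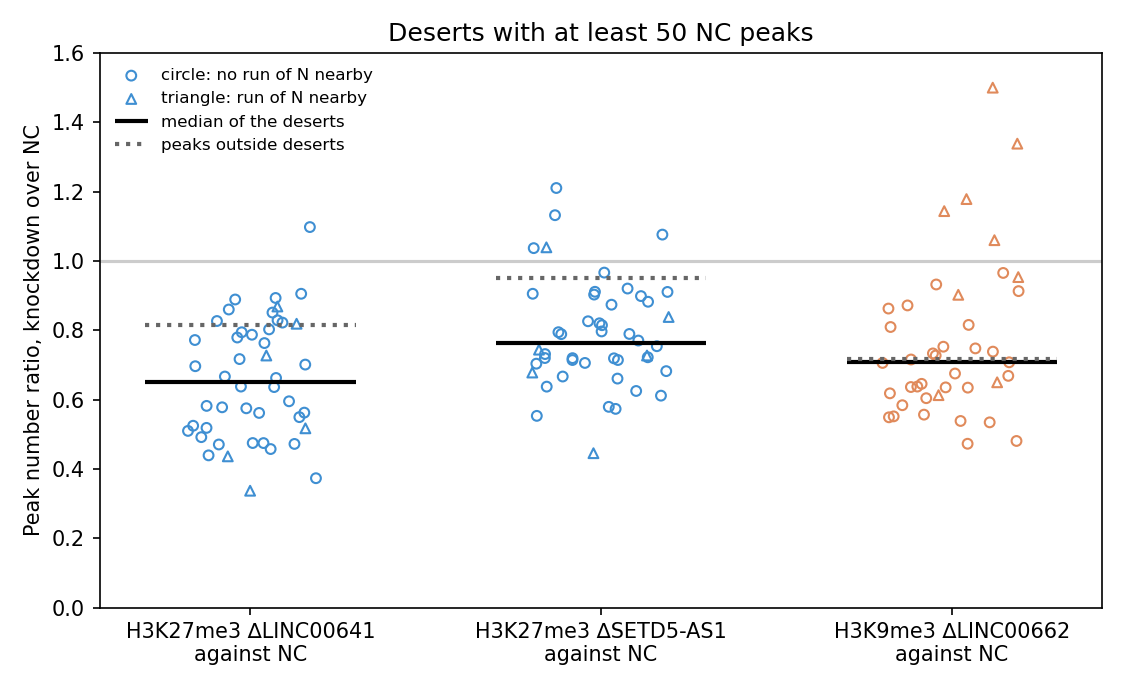
Ratio of knockdown to NC peak number (y axis) for each desert with at least 50 NC members (46 for H3K27me3, 41 for H3K9me3; circles away from assembly gaps, triangles near them), with the median of the deserts (solid line) and the ratio of all peaks outside deserts (dotted line). The H3K27me3 medians of 0.650 and 0.762 lie below the dotted lines at 0.815 and 0.951. For H3K9me3 both lines lie near 0.71, and the 5 deserts above 1 are triangles. The deserts were picked by NC number alone, which favours ratios below 1, and no such pick was made for the dotted lines.

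For H3K9me3, deserts near and away from assembly gaps differed. Near gaps ∆LINC00662 had 1262 members where NC had 1269 (0.994 times), and 53.3% (50.6 to 56.1) of the NC members were retained. Away from gaps it had 4204 against 5805 (0.724 times), close to the 0.717 of other peaks, and 34.5% (33.3 to 35.7) were retained, below the 38.0% of other peaks. Of 41 deserts with at least 50 NC members, again picked by NC number alone, 36 had fewer in ∆LINC00662. The 5 with more lay near gaps, led by POTEA-SPIDR on chromosome 8 with 96 in NC and 144 in ∆LINC00662. FAM72B-PPIAL4G retained 66.4% (58.4 to 73.6) of its NC members and ZNF716-ZNF722 61.95%. The strongest lost members lay near gaps too, chr19:27738375-27738677 with an input of 313 times the genome-wide level and chr10:42408149-42408432 with 9.92 times. Input-rich members made up 8.51% near gaps in NC and 10.8% in ∆LINC00662. Without input-rich peaks, overall retention in deserts was 36.2%.

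H3K9me3 members were also grouped by the number of H3K27me3 NC members of their desert, away from gaps. Retained in ∆LINC00662 were 35.1% (33.1 to 37.2) in the 114 deserts with no H3K27me3 member, 36.2% (34.4 to 38.0) in the 100 with 1 to 49 and 29.3% (26.7 to 32.1) in the 40 with at least 50. In the 10 deserts with most, 117 of 449 (26.1%, 22.2 to 30.3) were retained. Retention was thus lower in the deserts with at least 50 and did not fall between 0 and 49. The number of H3K9me3 members ran the other way, at 0.666, 0.705 and 0.880 times that of NC in the same 3 groups and 0.837 times in the 10 deserts. VRK1-BCL11B had the highest H3K27me3 retention in ∆LINC00641 of the 46 deserts and the lowest H3K9me3 retention of the 41, 12 of 69 members (17.4%, 10.2 to 28.0), although its H3K9me3 number fell little, from 69 to 63 (0.913 times, against a median of 0.708). The median −log10 q of the H3K9me3 members was 4.16, 4.30 and 3.68 in the 3 groups. Retention rose with −log10 q over the 5 strength groups of each comparison, and the part of peak strength in this contrast was not tested.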

How the data were processed

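The 30 samples of HEK293T cells form 10 groups of 3 by title, ChIP of H3K27me3 or H3K9me3 and its input, and the 5 ChIP groups were analysed. Per the study's methods and the submitters' processing notes, the authors used FastQC 0.11.8 for read quality, Cutadapt 3.3 for adapters, Bowtie2 2.4.2 for alignment to hg19 and GATK for duplicates, merged replicates and called peaks against merged input with MACS2 2.2.7.1. The deposited values are peak positions, the fold enrichment (a ratio over local input) and −log10 p, and a score that is −log10 q. Fragment numbers, local input and depth were solved from the deposited fold and −log10 p, which gave whole numbers for 100% of peaks (tolerance 0.1%).

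Distances used GENCODE 44 protein-coding spans on GRCh37, and no peak on the 22 autosomes ended beyond the reference. Overlap needed 1 bp. Depth limits single weak peaks, since the median member summit held 17 to 21 fragments. Regions named are the 2 strongest members of each list by −log10 q (also away from gaps), the 2 strongest lost and new members, the longest NC members, the leading deserts and lncRNA genes, and the strongest NC members' sequences, of which 1 is not reported here; other names are said to be chosen later. The weighting by strength and GC, the retention of single deserts, the immunoglobulin deserts and the split of H3K9me3 by H3K27me3 were chosen after values were seen. The members and lists were chosen with earlier results of these data known. Functions were tested on simulated data. Sequences were read with samtools 1.23.1 and pysam 0.24.0, tables computed with pandas 2.3.3 and numpy 2.4.6, intervals with scipy 1.17.1 and plots drawn with matplotlib 3.10.9, in Python 3.11.15.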

Additional observations from a re-analysis of the deposited data

How the results depend on the processing

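No paired analysis was possible because each group is 1 list called on merged replicates, and leaving out a replicate was not possible for the same reason. Of 144 alternatives over 18 results, 90 kept the value within its tolerance, 45 moved it and 9 turned its direction, and the cause was not tested. The tolerance was the 95% Wilson interval for a share, 1 SD over chromosomes for a log2 median and 1.5 times for a ratio. The last is wide, since the H3K27me3 NC density ratio of 1.89 over 250 kb from genes, against 1.37, lies within it. The median log2 ratio turned to 0.0018 in ∆LINC00641 at a −log10 q of at least 5, and in ∆LINC00662 to 0.014 there, to 0.0100 over 250 kb from genes and to 0.0079 away from gaps. It was -0.090 in ∆LINC00662 with equal numbers of strongest peaks. The density ratio turned to 0.871 (∆LINC00641) and 0.978 (∆SETD5-AS1) at a −log10 q of at least 5, and to 0.971 (NC), 0.732 and 0.812 over 1 Mb from genes. The following values are in the order ∆LINC00641, ∆SETD5-AS1 and ∆LINC00662. Retained shares were 33.4%, 34.4% and 28.4% at a −log10 q of at least 5, 45.3%, 46.6% and 43.3% with equal numbers of strongest peaks, 42.5%, 46.6% and 39.0% with peaks within 1 kb merged, 26.6%, 30.2% and 26.3% at 50% overlap, 39.1%, 47.0% and 40.5% over 1 Mb, and 65.9%, 68.3% and 55.1% for strong peaks against the whole other list. Over 250 kb they were 46.5% and 50.3% for the H3K27me3 knockdowns. For ∆LINC00662 the share was 36.2% without input-rich peaks and 34.5% away from gaps. New shares were 53.6%, 57.5% and 55.0% at a −log10 q of at least 5, 44.6%, 45.0% and 57.5% with equal numbers, 52.7%, 57.3% and 56.6% at 50% overlap, 34.1%, 39.6% and 47.1% over 1 Mb, and 17.1%, 22.7% and 34.5% for strong peaks. They were 35.3% and 40.8% over 250 kb for the H3K27me3 knockdowns, and for ∆LINC00662 51.5% without input-rich peaks and 51.0% away from gaps. The share of H3K9me3 members with an H3K27me3 peak was 4.26% at a −log10 q of at least 5, 13.2% over 250 kb and 8.10% away from gaps. For other peaks it was 3.62%, 9.19% and 9.92% in these settings. Desert retention stayed below that of other peaks in 11 of 11 settings for both H3K27me3 knockdowns, with differences of -16.5 to -7.02 and -12.8 to -6.40 percentage points, and in 6 of 11 for ∆LINC00662. Peaks of few fragments limit each single call.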
